A study of Mus musculus with 2 samples.

Results

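The genes of the angiotensin and endothelin system were described in heart tissue of 2 mice. They are 9 genes chosen by name among the 55536 mouse genes of the deposited gene tables: Agt, Ace, Agtr1a, Agtr1b and Agtr2 of the angiotensin branch, and Edn1, Ednra, Ednrb and Ece1 of the endothelin branch. The samples were total RNA-seq libraries of the heart from 2 female mice aged 36 days of B6CASTF1/J, an F1 cross between C57BL/6J and CAST/EiJ. Each library was built from 300 ng of total RNA with ERCC spike-in transcripts, and no treatment or engineered allele is named in the labels. The 2 libraries form a single group of biological replicates, so the data give levels, transcripts and the match between the animals, and no contrast between conditions. The labels' sample descriptions number the animals separately but give both 1 donor identifier. SDs therefore measure only the spread between these 2 libraries, which would be technical if that identifier stood for a single animal. P-values compare the reads of these 2 libraries and do not measure a spread among animals.

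Angiotensinogen, the product of Agt, is cut by renin to the decapeptide angiotensin I, from which the converting enzyme Ace makes angiotensin II, a peptide that raises blood pressure. Angiotensin II acts on AT1 receptors, which rodents encode in the related genes Agtr1a and Agtr1b and which couple to Gq, and on the AT2 receptor of Agtr2, which often opposes AT1. Endothelin-1, the product of Edn1 and a potent constrictor released mainly by endothelial cells, is cut from its precursor by the converting enzyme Ece1 and acts on the receptors ETA (Ednra) and ETB (Ednrb). In the heart both peptides are known for effects on contraction, vascular tone, cell growth and matrix deposition.

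The peptides themselves are short stretches of their precursor messages, shown here because the levels of Agt and Edn1 are levels of these templates. Both were read from the GENCODE M21 transcripts (build mm10), 5′ to 3′ on the coding strand. For Agt the first 147 coding bases are shown (chr8:124564420-124564566, minus strand, within a single exon), with the codons of angiotensin I in capitals. For Edn1 coding bases 127 to 249 are shown (chr13:42303619-42304961, plus strand, interrupted there by an intron), with the 21 codons of endothelin-1 in capitals.
Agt: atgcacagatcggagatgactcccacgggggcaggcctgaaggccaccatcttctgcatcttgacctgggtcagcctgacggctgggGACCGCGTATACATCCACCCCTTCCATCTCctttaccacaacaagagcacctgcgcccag
Edn1: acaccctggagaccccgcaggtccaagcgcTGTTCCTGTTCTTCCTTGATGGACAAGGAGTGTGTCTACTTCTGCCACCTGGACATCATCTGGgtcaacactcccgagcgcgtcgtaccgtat
The capitals of Agt are codons 30 to 39 of the annotated reading frame, and those of Edn1 codons 53 to 73. Each of these genes has a single annotated transcript, so all of its counts were assigned to a transcript that carries the peptide codons. Reads over those codons alone were not counted.

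The 2 AT1 receptor genes are near copies, which bears on whether their reads can be told apart. The first 150 coding bases of each are shown, Agtr1a on chromosome 13 (chr13:30380954-30381103, plus strand) and Agtr1b on chromosome 3 (chr3:20316291-20316440, minus strand), with the bases that differ between them in capitals.
Agtr1a-201: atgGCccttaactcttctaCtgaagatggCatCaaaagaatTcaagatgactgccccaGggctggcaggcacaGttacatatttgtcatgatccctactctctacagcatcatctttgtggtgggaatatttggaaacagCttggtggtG
Agtr1b-201: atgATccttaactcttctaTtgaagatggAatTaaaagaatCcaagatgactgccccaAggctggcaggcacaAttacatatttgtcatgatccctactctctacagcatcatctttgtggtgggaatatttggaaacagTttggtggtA
These stretches differ at 10 of 150 bases, and the whole coding sequences at 99 of 1080, so that 90.8% of the bases are the same. The longest identical run was 66 bases. The deposited transcript length exceeded the effective length by 99 bases, as for windows of 100 bases, and none of the 981 windows of 100 coding bases was identical in both genes. Of the 1050 windows of 31 bases, 93 were. Over whole transcripts on either strand, no 100-base window of Agt, Agtr1a, Agtr1b, Agtr2, Edn1, Ednra, Ednrb or Ece1 occurred in a transcript of another gene. Ace shared 101 of 5379 such windows with the antisense gene Gm11651, which had 0 counts in both libraries.

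Replicate 1 held 39053337 and replicate 2 held 38332175 expected counts, estimated reads per gene before any normalization. All 8 cardiomyocyte markers were detected, with a summed level of 30538 and 30340 TPM. TPM are reads per effective transcript length, scaled to the same total in each library, and a gene was called detected at 1 TPM or more in each library. Markers of lung epithelium summed to 0.07 and 0 TPM, and those of hepatocytes to 0.64 and 0.26. Erythroid markers differed most in summed level among the marker lists with a detected gene, at 36363 and 11883 TPM, and all 6 were lower in replicate 2.

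Of the 9 genes, 7 were detected and Agtr1b and Agtr2 had 0 counts in both libraries. Among all nuclear protein-coding genes 50.2% were detected. The 7 spanned levels from 1.74 TPM for Edn1 to 42.5 TPM for Ece1, with the processing enzymes and receptors above the peptide precursors. Their median of 8.46 TPM compared with 8.72 TPM over the 11042 detected nuclear protein-coding genes.

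**Figure D1:**
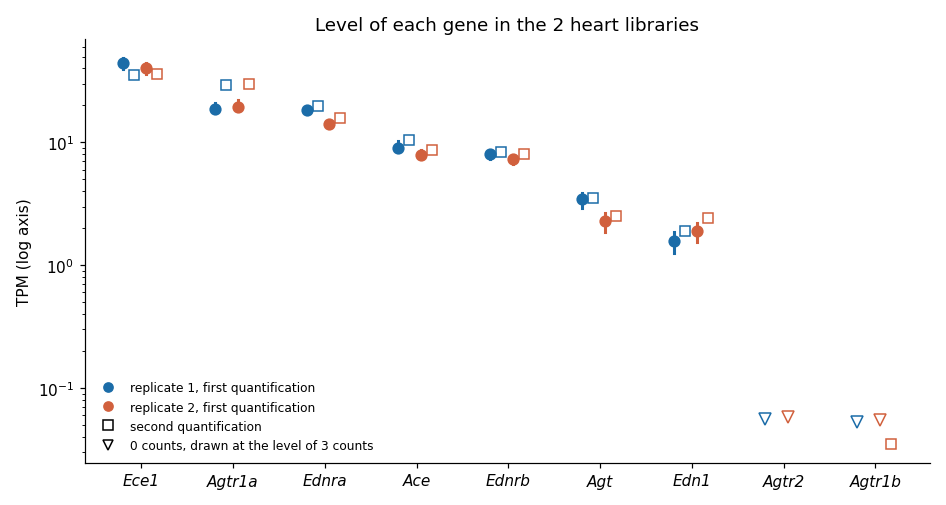
Level of each gene in TPM (log axis) by library. Filled circles are the first quantification with the authors' interval for TPM, open squares the second quantification, and open triangles mark 0 counts at the level that 3 counts would give. Ece1 was highest at 44.5 and 40.6 TPM, and Agtr2 and Agtr1b were at 0 counts.

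Of the peptide precursors, Agt (ENSMUSG00000031980.9, chromosome 8, 124556534 to 124569706) was at 3.43 TPM in replicate 1 and 2.29 in replicate 2, from 193 and 125 counts (2.86 ± 0.806, SD, n = 2, as for all means below). The value of replicate 1 was the higher, and the authors' intervals for TPM, 2.90 to 3.85 and 1.87 to 2.65, did not overlap. Edn1 (ENSMUSG00000021367.8, chromosome 13, 42301476 to 42307990) was at 1.58 and 1.90 TPM, from 101 and 118 counts (1.74 ± 0.226). Here replicate 2 was the higher, within overlapping intervals of 1.25 to 1.85 and 1.54 to 2.21. Edn1 had the lowest level of the detected 7, above only 6.96% of detected nuclear protein-coding genes. The other endothelin genes lay below it: Edn3 was at 0.38 and 0.16 TPM from 25 and 15 counts, and Edn2 at 0 counts. Edn1 made 86.4% ± 8.22 of the Edn1 and Edn3 total.

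Ece1 (ENSMUSG00000057530.14, chromosome 4, 137862237 to 137965229), the endothelin converting enzyme, was at 44.5 and 40.6 TPM, from 4276 and 3947 counts (42.5 ± 2.81). It had the highest level of the 9 in both libraries and lay above 88.4% of detected nuclear protein-coding genes. Its paralogue Ece2 was at 0.19 and 0.44 TPM from 15 and 30 counts, and Ece1 made 99.3% ± 0.458 of the pair. Ace (ENSMUSG00000020681.14, chromosome 11, 105967945 to 105989964), the angiotensin converting enzyme, was at 9.02 and 7.89 TPM, from 1249 and 1110 counts (8.46 ± 0.799).

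Agtr1a (ENSMUSG00000049115.15, chromosome 13, 30336441 to 30382867), the main AT1 receptor gene of rodents, was the highest of the receptor genes by TPM. It was at 18.6 TPM in replicate 1 and 19.4 in replicate 2, from 1019 and 1055 counts (18.98 ± 0.587). Agtr1b (ENSMUSG00000054988.9, chromosome 3, 20314473 to 20367177) had 0 counts in both libraries, and the 3 counts that a count of 0 allows would be 0.0533 and 0.0550 TPM. The authors' upper bounds were wider, at 0.0841 and 0.0881 TPM. Agtr1a was 221-fold and 220-fold above these bounds, and 186-fold and 189-fold with only its completely annotated transcripts. Against the 3-count limit, which holds for counting error only, Agtr1b was at least 294-fold and 303-fold lower than the complete transcripts of Agtr1a. The second quantification gave Agtr1b 2.00 counts in replicate 2, or 0.0353 TPM. The 3-count limit is for a count of 0 and does not bound that value. As shown above, the 2 coding sequences differ within every 100 bases. Agtr2 (ENSMUSG00000068122.10, chromosome X, 21484544 to 21489164) had 0 counts in both libraries and both quantifications, a 3-count limit of 0.0562 and 0.0580 TPM. Its authors' upper bounds were far wider, at 0.444 and 0.456 TPM, and Agtr1a was 41.8-fold and 42.5-fold above them, or 35.3-fold and 36.6-fold with only its complete transcripts. Limits and counting intervals leave out all error but that of counting, because without molecular identifiers several reads can stem from 1 molecule.

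Ednra (ENSMUSG00000031616.7, chromosome 8, 77663031 to 77724464), the ETA receptor of muscle and vessel wall cells, was at 18.3 and 14.1 TPM, from 2011 and 1506 counts (16.2 ± 2.93). The first library was the higher, with authors' intervals of 17.1 to 18.6 and 13.1 to 14.5 that did not overlap. Ednrb (ENSMUSG00000022122.15, chromosome 14, 103814625 to 103844402), the ETB receptor known from endothelial cells, was at 8.07 and 7.38 TPM, from 916 and 828 counts (7.73 ± 0.488). Its intervals, 7.36 to 8.50 and 6.72 to 7.79, overlapped. Ednra was 2.09-fold higher than Ednrb by mean TPM and made 67.5% ± 2.60 of the pair, 69.3% in replicate 1 and 65.7% in replicate 2.

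In order of level the genes ran Ece1, Agtr1a, Ednra, Ace, Ednrb, Agt and Edn1. Ace and Ednrb did not differ beyond the spread between libraries, their values overlapping with a ratio of 1.09. Agtr1a and Ednra, at a ratio of 1.17, did not overlap over the libraries, but their authors' intervals overlapped in 1 of the 2. Agt and Edn1, at a ratio of 1.64, also had overlapping intervals in 1 of the 2. The other neighbours were apart in both respects. The second quantification gave every pair of neighbours in the same order in both libraries.

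The levels of Ece1, Agtr1a and Ace depended on annotated transcripts whose start or end was not found, which were short in Ece1 and Agtr1a. Of the 25 annotated transcripts of the 9 genes, 7 carry such a mark: 4 of Agtr1a, 2 of Ece1 and 1 of Ace. Since TPM divides by effective length, few reads on a short transcript give a high TPM. A transcript of Ece1 of 172 bases, annotated without an end, received 22 and 19 counts, 0.498% ± 0.0234 of the counts of Ece1, yet 21.3% ± 0.326 of its TPM. The second quantification gave it 0 counts. Agtr1a-206, 445 bases long, took 38.97% ± 2.34 of the TPM of Agtr1a in the second quantification, from 51.3 and 46.4 counts, against 3.29% ± 0.456 in the first. Agtr1a-203 took 10.6% ± 2.86 by the first and none by the second. The marked transcript of Ace, Ace-203, is not short, at 3649 bases. In the first quantification it took 18.9% ± 5.99 of the TPM of Ace and 15.0% ± 5.16 of its counts.

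**Figure D2:**
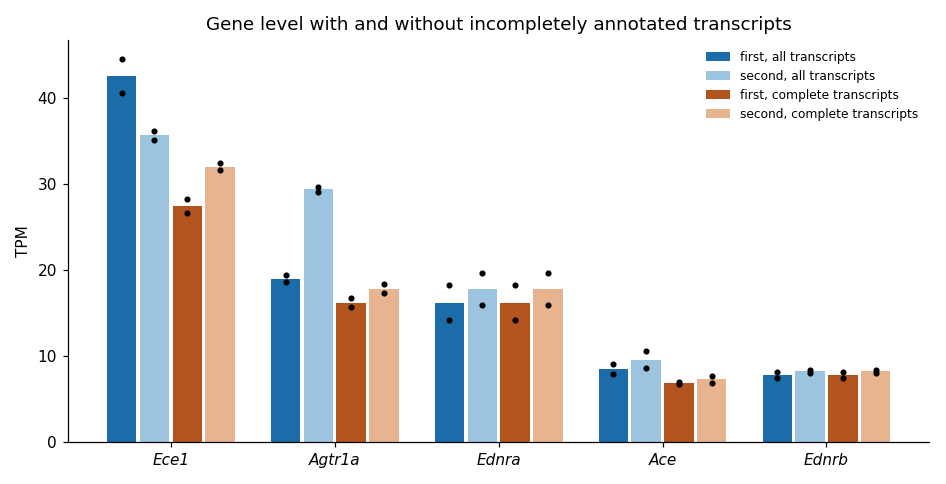
TPM of 5 genes over all annotated transcripts and over complete transcripts only, in both quantifications; bars are means and points the 2 libraries. The values of Agtr1a, 18.98 and 29.4 TPM over all transcripts, lay at 16.2 and 17.8 over complete ones.

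Restricted to complete transcripts, Ece1 was at 27.4 ± 1.11 TPM (first quantification) and 31.98 ± 0.585 TPM (second), against 42.5 and 35.7 over all transcripts. Agtr1a was at 16.2 ± 0.714 and 17.8 ± 0.731, against 18.98 and 29.4, so that the ratio of the second to the first quantification was 1.10 in place of 1.55. Ace was at 6.83 ± 0.141 and 7.26 ± 0.513. On this basis Agtr1a and Ednra had mean levels of 16.2 TPM each, with Ednra higher in replicate 1 (18.3 against 15.7) and Agtr1a higher in replicate 2 (16.7 against 14.1). The order of Ace and Ednrb turned once the reads of Ace-203 were left out. Ace was at 6.93 and 6.73 TPM and Ednrb at 8.06 and 7.38. Ednrb was also the higher in both libraries of the second quantification. Ece1 was still the highest in both quantifications. By counts, which do not divide by length, transcripts without a start or end held between 2.66% and 3.63% of the counts of Agtr1a and Ece1, and 18.6% and 11.3% of those of Ace in the first quantification.

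**Figure D3:**
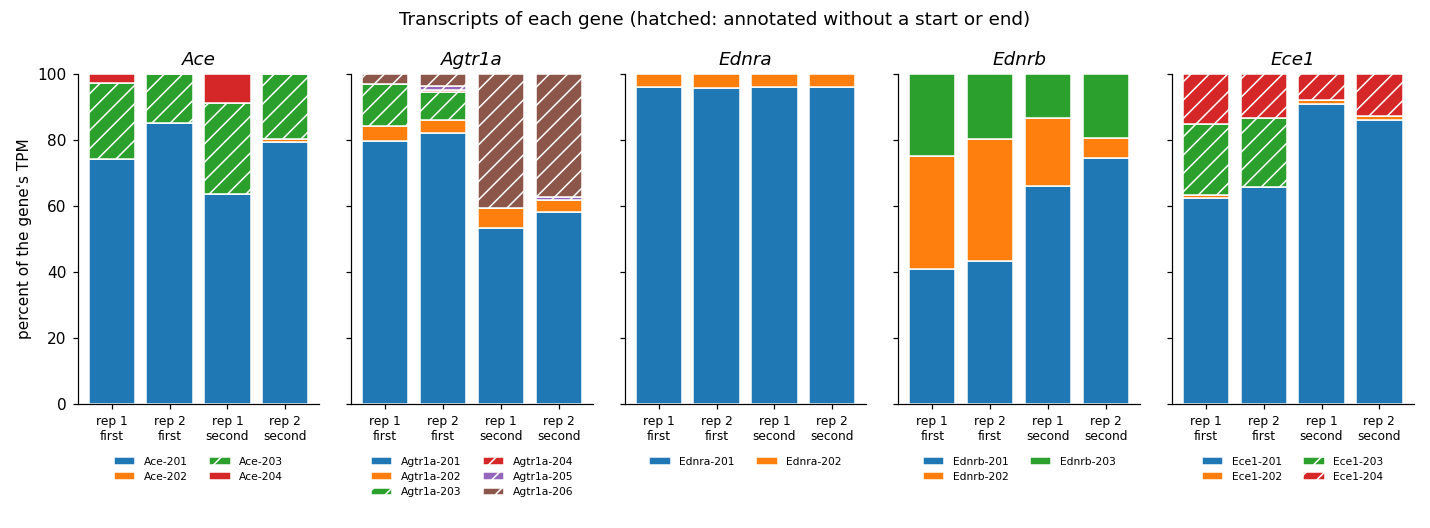
Share of each gene's TPM by annotated transcript, for both libraries and both quantifications; hatched parts are transcripts annotated without a start or end. The same transcript leads in every bar of a gene, with the lowest leading share in Ednrb at 41.1% and 43.4% in the first quantification.

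The same transcript led in both quantifications for all 5 detected genes with several transcripts. Ednra-201 took 95.9% ± 0.128 of the TPM of Ednra, and the retained-intron form Ednra-202 took 4.09% ± 0.128, with 3.996% ± 0.0226 in the second quantification. For Ednrb the split depended on the quantification. Ednrb-201, Ednrb-202 and Ednrb-203 took 42.2% ± 1.62, 35.6% ± 2.13 and 22.2% ± 3.75 in the first quantification. The second gave them 70.3% ± 6.04, 13.5% ± 10.4 and 16.2% ± 4.34. All 3 encode the same coding sequence of 442 codons and differ in their ends, with start sites at 103844402, 103843696 and 103843695. Ece1-204, which starts at 137913471 within the gene and is annotated without an end, took 14.2% ± 1.31 of the TPM of Ece1, or 10.3% ± 3.46 by the second quantification.

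Ace has 2 annotated promoters, and the transcripts tell them apart. The long somatic form Ace-201, of 1312 codons, starts at 105967945, and Ace-202, of 732 codons, starts at 105975208 and matches the form known from male germ cells. Ace-201 received 1012 and 984 counts and 79.8% ± 7.79 of the TPM of Ace in the first quantification, and 71.6% ± 11.2 in the second. Ace-202 received 0 counts in both libraries, and 0 and 3.74 in the second quantification. Most of the rest went to Ace-203 (18.9% ± 5.99 and 23.7% ± 5.50), which is annotated without a start. The promoter windows of both starts, 250 bases before to 50 after, are shown from the RefSeq table (GRCm38.p6, plus strand) because only the first of them belonged to a transcript with counts in the first quantification. The windows are chr11:105967698-105967997 for the somatic start and chr11:105974939-105975238 for the internal start. Capitals mark matches to 3 motifs searched on both strands. The first was TATAAA, the core of the TATA box. The second was GGGCGG, the core of the GC box. The last was TGACGTCA, the cAMP response element.
Ace somatic start: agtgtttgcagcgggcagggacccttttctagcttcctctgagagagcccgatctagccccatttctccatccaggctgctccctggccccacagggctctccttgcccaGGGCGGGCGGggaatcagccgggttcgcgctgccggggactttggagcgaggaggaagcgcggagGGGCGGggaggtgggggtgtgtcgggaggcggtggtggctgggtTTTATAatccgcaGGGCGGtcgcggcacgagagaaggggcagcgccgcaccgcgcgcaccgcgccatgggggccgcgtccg
Ace internal start: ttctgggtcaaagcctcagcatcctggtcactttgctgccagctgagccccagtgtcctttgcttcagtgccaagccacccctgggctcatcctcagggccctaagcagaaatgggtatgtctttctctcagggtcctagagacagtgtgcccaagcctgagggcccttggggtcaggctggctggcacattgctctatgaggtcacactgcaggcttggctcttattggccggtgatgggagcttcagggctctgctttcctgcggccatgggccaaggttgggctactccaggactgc
The somatic window held 1 match to TATAAA, on the opposite strand and beginning at position -31 from the start, and 4 to GGGCGG, 2 of which overlap. The internal window held no match to any of the 3 motifs, and neither held TGACGTCA. Of all 32851 promoter windows of the same length, 13.6% held TATAAA, 35.7% GGGCGG and 1.79% TGACGTCA. The share of G and C was 69.7% in the somatic and 59% in the internal window, with a median of 52.7% over all windows. Of the 9 genes, 8 had an entry in this table, and Agtr1a had none. Among the others, Agt and Agtr1b each held 1 match to TATAAA, at -30 and -31, while Agtr2, Edn1, Ednra, Ednrb and the Ece1 windows held no TATAAA. The Ece1 windows held 2, 2, 0 and 1 matches to GGGCGG, and the windows of the other genes besides Ace held none.

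The reads of the 2 libraries were then set against each other, to see how far they matched. The exact two-sided binomial test compared expected counts with library sizes scaled by TMM, with Benjamini-Hochberg adjustment over 13745 genes, and compares 2 libraries and not conditions. Calls required both an adjusted p under 0.05 and a ratio of 2-fold or more. Of the 9 genes, 7 had the summed count of 50 needed for the test, and none was called, against 1.53% of all genes tested (210 genes), 0.546% higher and 0.982% lower in replicate 2. At any fold 2 of the 7 passed the adjusted threshold, both lower in replicate 2, against 21.9% of all genes in either direction and 11.8% in that direction. Counting noise is the only error in this test. The exact test of edgeR takes a common dispersion from these libraries in addition. Under it none of the 7 passed, at an unadjusted p under 0.05 either. Of all 13745 genes 155 passed at the adjusted and 583 at the unadjusted threshold, so none of 7 does not set these genes apart. The dispersion comes from the same 2 libraries that are tested, so it takes up part of their difference.

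**Figure D4:**
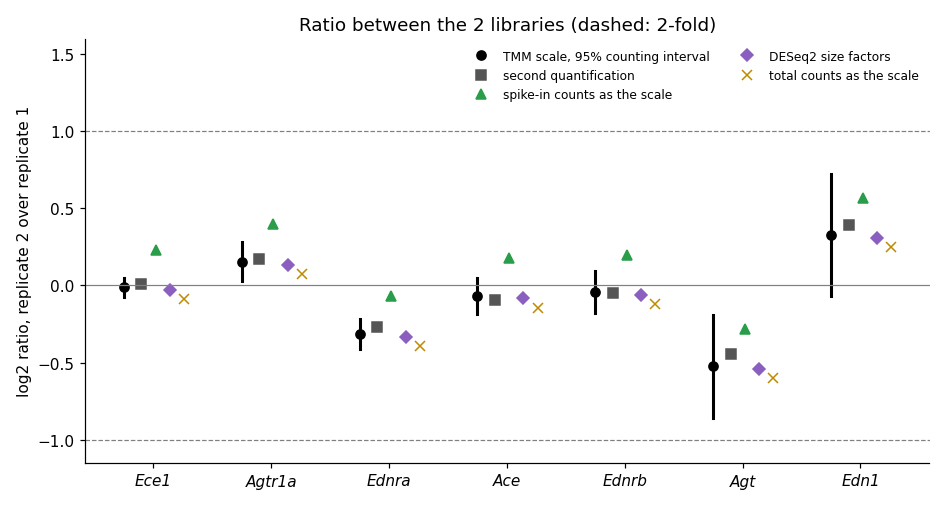
Log2 ratio of replicate 2 over replicate 1 for the 7 genes with enough counts; black points use the TMM scale with 95% counting intervals, and the other symbols other scales or the second quantification. All values lie within the dashed lines of a 2-fold ratio, with Agt lowest at -0.52 on the TMM scale.

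Ednra was lower in replicate 2, at -0.31 on the log2 scale (95% counting interval -0.41 to -0.22, adjusted p = 3.05e-09 by the exact binomial test). With spike-in counts as the scale its ratio was -0.07 and did not pass, and edgeR's exact test gave an unadjusted p of 0.184. Beside it, smooth muscle markers summed to 159 and 142 TPM, with all 6 genes at ratios below 0 and 1 of them past the threshold, and none of the list was at 0 counts. Pericyte markers summed to 235 and 230 TPM, with 1 of 6 past the threshold in each direction. Fibroblast markers summed to 664 and 681 TPM, with 4 of 8 higher and 1 lower past the threshold. Of the 8 cardiomyocyte markers 5 were higher and 2 lower past it. Over all genes tested 10% were higher and 11.8% lower past the threshold. Sums of TPM are not on the TMM scale, and nuclear protein-coding genes held 41.5% and 37.1% of all TPM. On the TMM scale the median log2 ratio was -0.06 for smooth muscle, 0.04 for pericyte, 0.10 for fibroblast and 0.04 for cardiomyocyte markers. The part of these cells in the ratio of Ednra was not tested, and in tissue RNA fewer cells of a type and less RNA per cell cannot be told apart.

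Agt was lower in replicate 2, at -0.52 on the log2 scale (95% counting interval -0.86 to -0.19, adjusted p = 0.0104 by the exact binomial test). With spike-in counts as the scale its ratio was -0.28 and did not pass, and edgeR's exact test gave an unadjusted p of 0.0737. White adipocyte markers summed to 70.3 and 37.4 TPM, and none was at 0 counts. All 4 tested of 6 were lower past the threshold and 3 were called. Over all genes tested 11.8% were lower past it and 0.982% were called lower. Brown adipocyte markers summed to 1235 and 1077 TPM, of which the muscle gene Cox7a1 alone made 1088 and 1012, and 5 of 6 were lower past the threshold with 3 called. Among these, the uncoupling protein Ucp1 was at 52.6 and 7.95 TPM. In the list for hepatocytes, the main source of circulating angiotensinogen, 1 of 4 markers was at 0 counts in both libraries and none reached 1 TPM. The part of fat in the ratio of Agt was not tested.

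The other 5 did not pass the adjusted threshold of the exact binomial test. Agtr1a had a log2 ratio of 0.15 (95% counting interval 0.03 to 0.28, adjusted p = 0.0692), and it passed in the second quantification at 0.17. Edn1 had 0.33 (-0.07 to 0.73, adjusted p = 0.267), an interval that its low counts leave wide. The remaining intervals were narrow: Ace had -0.07 (-0.19 to 0.05), Ednrb -0.04 (-0.18 to 0.09) and Ece1 -0.01 (-0.08 to 0.05). Endothelial markers summed to 304 and 272 TPM. Of the 8, 4 were lower past the threshold and none higher, against 11.8% and 10% of all genes tested. With spike-in counts as the scale all 5 passed and were higher in replicate 2. On that scale 7952 of all 13745 genes tested passed, in either direction. Agtr1a was then at 0.40 and Edn1 at 0.57, and the direction turned for Ace (0.18), Ednrb (0.20) and Ece1 (0.23), while the median of all genes was 0.24. The median log2 ratio on the TMM scale was -0.04 over the 7 genes and 0.00047 over all genes tested.

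Among 24 further genes of the renin-angiotensin system, 14 were detected, with a median of 3.94 TPM. The highest was Lnpep, the insulin-regulated aminopeptidase that binds angiotensin IV, at 68.2 and 68.3 TPM, followed by Mtus1, which encodes a partner of the AT2 receptor, at 66.4 and 65.1. Ctsg, which encodes a protease able to make angiotensin II, was lowest at 0 counts. Ren1, the gene of renin, had 2 counts in replicate 1 and 1 in replicate 2, at 0.04 and 0.02 TPM. Cyp11b2, aldosterone synthase, had 0 counts. The prorenin receptor gene Atp6ap2 was at 8.61 and 7.50 TPM, the AT1 receptor associated protein Agtrap at 17.1 and 16.2, and Mas1, the receptor of angiotensin 1-7, at 0.30 and 0.40. Of the 16 genes tested, 3 were higher and 2 lower in replicate 2 past the adjusted threshold and none was called, with a median log2 ratio of -0.0018. Of all genes tested, 10% were higher and 11.8% lower at any fold. The lower genes were Aplnr (-0.38) and Apln (-0.30), the receptor and peptide of the apelin system, and the mineralocorticoid receptor Nr3c2 had the highest ratio of the 3 higher ones (0.37).

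**Figure D5:**
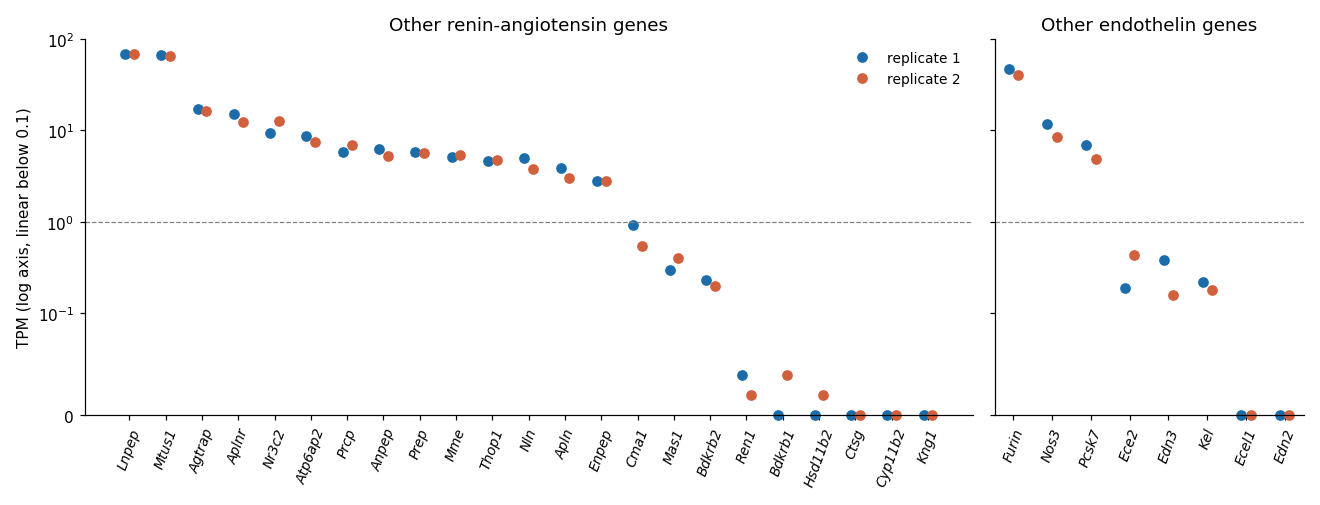
TPM of other renin-angiotensin and endothelin genes, 1 of those counted in the text left out, in each library (log axis, linear below 0.1), with the dashed line at 1 TPM. Lnpep and Mtus1 are the highest in both libraries, at 65.1 TPM or more, followed by Furin, while Ren1 and Edn2 lie below the line.

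Of 8 further endothelin genes 3 were detected and tested, and 2 were lower past the adjusted threshold with none called. Over all genes tested 11.8% were lower at any fold. Furin, a protease that cuts the endothelin precursor ahead of Ece1, was the highest at 46.7 and 40.2 TPM (log2 ratio -0.13). Nos3, endothelial nitric oxide synthase, through which ETB receptors relax vessels, was at 11.9 and 8.54 TPM (-0.41). Edn2 and Ecel1 had 0 counts in both libraries.

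Nearly all genes of the shared signalling machinery were detected. Of 23 genes of G proteins, phospholipases, calcium release channels, protein kinases C and regulators, 22 were detected, with a median of 8.70 TPM. The highest was Rgs5, a regulator of G protein signalling and also a pericyte marker (111 and 103 TPM), and the lowest was Plcb2 (0.67 and 0.69). Over all genes tested 10% were higher and 11.8% lower at any fold, and 1.53% were called. Of these 23 genes, all tested, 1 was higher and 5 lower in replicate 2 past the adjusted threshold. None was called, and the median log2 ratio was -0.06. The higher gene was Rgs2, which dampens Gq signals, at 19.8 and 29.4 TPM (0.67). Of 15 genes that both peptides are known to induce in heart cells, 14 were detected and tested, with a median log2 ratio of -0.003. Past the threshold 5 were higher and 5 lower, against 10% and 11.8% of all genes tested. Fos, an early response gene, was the only one called, at 3.81 and 8.77 TPM (1.36), while Myh7, beta myosin heavy chain, was highest at 812 and 878 TPM and Spp1, osteopontin, lowest at 0.10 and 0.20. Acta1, skeletal actin, and Nppb, the B-type natriuretic peptide, were lower in replicate 2 at -0.67 and -0.46. Because the binomial test covers counting noise only, genes with many counts pass at small ratios, such as Myh7 at 0.17. Under edgeR's exact test, only Fos among Rgs2, Fos, Acta1 and Nppb passed the adjusted threshold.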

How the data were processed

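Total RNA of 2 heart samples was sequenced, and the labels put both libraries in 1 group. Per the deposited description files, the authors quantified each library on build mm10 with annotation M21. Program names and versions: not given in the sources used here. Of the files, the first quantification was made from transcriptome alignments and holds deposited expected counts (estimated reads, not normalized), the authors' TPM and their bounds for TPM. The second was made from reads and a transcript index and holds deposited estimated counts and TPM, summed here per gene. The reference is of C57BL/6J, and its effect on reads of the CAST allele was not measured. Whether counting used strand is not given, and overlapping antisense genes had at most 63 counts in the first quantification. Rows whose identifier was a bare number (26248) were not used, nor were 97 spike-in rows outside the spike-in scale.

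Counts were rounded and compared by an exact binomial test with edgeR 4.0.16 (TMM), a minimum summed count of 50, 0.5 added in log2 ratios and 95% intervals. Poisson and binomial precision cover counting error only. On simulated counts of 13745 genes the comparison called 50 of 50 genes with a 3-fold change, 1 of 50 with a 1.5-fold change, and 2 of 13545 without any. The simulation held counting noise only, so it cannot give the rate of false calls between real libraries. Its changed genes left out those with the lowest counts, and a 1.5-fold change lies under the 2-fold rule for calls. Python 3.11.15, scipy 1.17.1 and DESeq2 1.42.0 were used. The members and lists were chosen with earlier results of these data known. Named are all members, the highest, lowest and called genes of each pathway list, the partner of each pair (1 pair is not reported here), and transcripts with at least 10% of a gene. Other genes and transcripts named, including Mtus1, Ren1, Cyp11b2, Atp6ap2, Agtrap, Mas1, Aplnr, Apln, Nr3c2, Nos3, Ecel1, Rgs2, Acta1, Nppb, Cox7a1, Ucp1 and Ace-202, were chosen after their values were seen. With 2 libraries no likeness of pattern to other genes was computed.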

Additional observations from a re-analysis of the deposited data

How the results depend on the processing

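Scaling by spike-in counts moved the median log2 ratio of all genes to 0.24. Then 5 of the 7 tested genes passed the adjusted threshold at any fold, beside 7952 of all 13745 genes tested. With TMM 3006 of all genes passed. With edgeR's common dispersion 0 of the 7 did, beside 155 of all genes. On the spike-in scale the direction turned for Ace (0.18), Ednrb (0.20) and Ece1 (0.23), and Agtr1a (0.40) and Edn1 (0.57) passed, while Agt and Ednra did not. A change of scale adds the same amount to every log2 ratio. Spike-in counts were 207724 in replicate 1 and 163501 in replicate 2, and the cause of that difference was not tested. The spike-in scale called 167 genes higher and 83 lower in replicate 2, against 75 and 135 with TMM. The DESeq2 size factors, no filter on low counts and a pseudocount of 1 kept each of the 7 log2 ratios on its side of the threshold, whereas with total counts Ece1 (-0.09) and in the second quantification Agtr1a passed. No alternative called any of the 9 genes at 2-fold, and 7 were detected in each library alone, at 0.5 TPM and in the second quantification. Leaving out transcripts without a start or end was chosen after seeing the data and moved the levels of Ace, Agtr1a and Ece1 by more than their SD, Ece1 by over 1.5 times. Rescaling TPM to nuclear protein-coding genes moved all 7 levels up, from 4.47 TPM for Edn1 and 7.22 for Agt to 108 for Ece1, and the second quantification moved those of Ace, Agtr1a, Edn1 and Ece1 by more than their SD. The 2 libraries leave 1 degree of freedom for any spread.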

Other observations

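Genes that overlap the members on the genome were few and low in the first quantification. The long RNA gene 4933431K23Rik, which spans Ednra on the opposite strand, had 63 and 40 counts. The antisense genes Gm11651 (Ace) and Gm47118 (Edn1) had 0 in both libraries, and Gm13012 (Ece1) had 0 and 1. Gm48161, annotated as sense intronic within an intron of Agtr1a (chromosome 13, 30370359 to 30377183), had 13 and 11 counts in the first quantification and 937 and 787 in the second. The gene counts of Agtr1a itself, 1019 and 1055 against 997 and 1059, differed far less between the quantifications. These genes were named after their values were seen.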
